A study of Mus musculus with 6 samples.

Results

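Cholesterol and fatty acid synthesis was examined through 31 genes given by name, out of 34866 gene rows in a count table of the antral stomach lining of mice. The members were 7 enzymes of the mevalonate arm, 11 enzymes from squalene to cholesterol, 5 genes that control the sterol-sensing transcription factors, 1 sterol transfer protein and 7 genes of the fatty acid arm. Messenger RNA was sequenced from 3 wild-type libraries (Muc6 +/+) and 3 libraries from mice without the gland mucin gene Muc6 (Muc6 -/-), all from antral mucosa. The series asks how loss of Muc6 bears on stomach cancer. No treatment is recorded, and the labels used here give no age, strain or sex, and do not say whether each library came from its own mouse, so p-values measure the spread between these libraries. Values are CPM, the counts scaled to a common library size of 1e+06. A gene was called when the adjusted p of edgeR's quasi-likelihood test was at most 0.05 over the 14017 genes tested.

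Cholesterol is built from acetyl-CoA. The mevalonate arm makes farnesyl units, the next enzymes join them into squalene, and the last steps turn the first sterol ring into cholesterol. The pathway is governed by SREBP transcription factors held in the endoplasmic reticulum. SCAP escorts them to the Golgi for cleavage when membrane sterol is low, and INSIG proteins hold SCAP back when sterol is plentiful. Srebf2 chiefly serves sterol genes and Srebf1 fatty acid genes, and INSIG1 is itself an SREBP target. In the stomach lining, the cells use these lipids for membranes and for the secretory pathway that exports mucin.

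Muc6 was present at 396, 403 and 510 CPM in the wild-type libraries and at 0.0425, 0 and 0 CPM in the knockout libraries, with 23248 counts over the wild types and 1 over the knockouts. The libraries held 19839799 to 21354029 counts. Gkn2, which marks surface pit cells of the stomach, was abundant in all (81600, 86100 and 96400 CPM in wild type, 13700, 19200 and 18000 CPM in knockout). The antral hormone gene Gast read 1200, 1160 and 762 CPM in wild type and 9.52, 14.8 and 24.8 CPM in knockout. All 8 pit cell markers tested were called lower, and in a bulk sample fewer cells of a type and less RNA per cell cannot be told apart. The 4 Y-linked genes summed to 5.85 to 6.73 CPM in wild type and 132 to 139 CPM in knockout, so sex and genotype cannot be told apart in any value below. Enteroendocrine markers summed to 1630 to 2200 CPM in wild type and 78.4 to 448 CPM in knockout. Forestomach squamous markers summed to 5.22 to 11.3 CPM and 152 to 168 CPM. In knockout these were mostly Ivl (134, 106 and 66.3 CPM) and Krt13 (12.2, 52.1 and 76.5 CPM). Krt5, Trp63, Dsg3 and Krt6a had knockout means of 0.413, 0.097, 0.227 and 0.213 CPM. Enterocyte markers summed to 1050 to 1090 CPM and 756 to 3810 CPM, with 6 of 11 tested called higher and 1 lower. The lower was Fabp2, most of the wild-type sum (679, 677 and 754 CPM, against 19.4, 87 and 202 CPM). Alpi rose from 29.6, 19.2 and 20 CPM to 308, 1310 and 1210 CPM. Gastric body markers summed to 176 to 638 CPM and 15.4 to 83.4 CPM, with 6 of 8 tested called lower, and 6 of 15 proliferation genes were called lower. The heat shock genes Hspa1a and Hspa1b, read as signs of stress, were called higher (log2 fold changes of 6.67 and 5.8, adjusted p = 0.0208 and 0.0122). Knockout 3 was far the highest: Hspa1a read 21.4, 43.8 and 322 CPM in knockout, and Hspa1b 102, 131 and 761 CPM. Fos, Jun and Egr1, read beside them, were not called (adjusted p = 0.362, 0.324 and 0.326). The part of any of these genes or cell types in the members' values was not tested. Wild type 1 and knockout 1 lay apart from the other libraries on the second principal component (19.6% of the variance), and had the lowest smooth muscle and fibroblast sums of their groups (228 and 383 CPM, against 1840 and 3450 CPM and 1280 and 959 CPM). Without both, 14 members were called lower and 3 higher, as were 24.3% and 23.7% of the 14321 genes then tested.

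The 250 bases before the annotated start are shown for 1 member of each larger group. Hmgcs1 and Insig2 were called lower, and Sc5d and Acly were not called. Sc5d and Acly are not shown to be unchanged, as the genotypes did not overlap in either. Each shown is the gene of its group with the smallest p among those whose window shares no base with an annotated exon. Exons of any gene counted. Such windows were 13 of the 33, from 11 of the 25 members with a window in the RefSeq table of GRCm38.p6. Capitals mark matches to an SRE-1 core, an E-box, a CCAAT box and a GC box, each searched on both strands with the letters given after the sequences, and no marked match overlaps another. Each sequence runs 5′ to 3′ along the gene's strand.
Hmgcs1, chr13:119690101-119690350, + strand: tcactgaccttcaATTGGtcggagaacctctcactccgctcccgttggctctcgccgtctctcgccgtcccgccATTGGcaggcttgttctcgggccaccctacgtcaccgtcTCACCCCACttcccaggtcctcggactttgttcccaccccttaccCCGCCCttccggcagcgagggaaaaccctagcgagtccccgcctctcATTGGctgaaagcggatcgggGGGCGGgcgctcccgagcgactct
Sc5d, chr9:42264301-42264550, - strand: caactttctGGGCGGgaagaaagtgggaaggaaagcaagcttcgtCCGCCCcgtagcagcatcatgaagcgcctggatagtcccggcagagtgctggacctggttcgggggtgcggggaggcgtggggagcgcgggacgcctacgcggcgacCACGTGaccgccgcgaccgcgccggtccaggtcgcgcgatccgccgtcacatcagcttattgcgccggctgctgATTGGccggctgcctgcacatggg
Insig2, chr1:121332590-121332839, - strand: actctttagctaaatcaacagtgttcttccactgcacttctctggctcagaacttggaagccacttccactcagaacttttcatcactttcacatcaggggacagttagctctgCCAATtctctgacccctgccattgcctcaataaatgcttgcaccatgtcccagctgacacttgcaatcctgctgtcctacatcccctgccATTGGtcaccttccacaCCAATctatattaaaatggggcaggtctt
Acly, chr11:100528001-100528250, - strand: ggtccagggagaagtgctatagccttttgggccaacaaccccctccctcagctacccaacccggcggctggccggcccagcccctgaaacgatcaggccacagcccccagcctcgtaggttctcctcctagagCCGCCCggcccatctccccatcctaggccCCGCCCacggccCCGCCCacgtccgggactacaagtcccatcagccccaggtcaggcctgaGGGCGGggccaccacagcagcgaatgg
The only SRE-1 core match among the 33 member windows lay in Hmgcs1, as TCACCCCAC from 137 to 129 bases before the start. Fdps, Fdft1, Sqle and Stard4, called lower, and Scd1 and Scd2, not called, had no window to search. Other forms of the motif, and bases outside the windows, were not searched. The motif searched was TCACNCCAC, which SREBP binds, and it was in 0.943% of 13786 windows of tested genes and 3.03% of member windows. CCAAT boxes, bound by NF-Y, a partner of SREBP, were in 63.6% of member windows and 35.1% of windows of tested genes. GC boxes, searched as GGGCGG, were in 72.7% of member windows and 55.2% of windows of tested genes. E-boxes, searched as CACGTG, were in 15.2% and 7.84%. The printed Hmgcs1 and Insig2 windows each held 3 CCAAT boxes, Sc5d held 1, and Acly held 4 GC boxes with no CCAAT box. Among windows not printed, those of Mvk and Fasn, not called, held 5 and 3 CCAAT boxes. Those of Msmo1, Hsd17b7, Cyp51 and Acat2, called lower, held 3, 3, 1 and 0. The other Insig2 windows held 0 CCAAT boxes and 1 GC box each. These are matches of letters, and no binding was measured. Insig2 has 3 annotated windows, and gene counts do not tell which start was used.

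Of the 13 members that fell, 10 were sterol enzymes, which made up 18 of the 31 members. No gene of the fatty acid arm was called. All 31 members passed the filter on low counts, and each had at least 993 counts summed over a genotype. Of the 31, 13 were called lower and 2 higher in knockout, whereas 16 were not called, and 13 lower became 7 lower with 10 higher when libraries were scaled to total counts (7.78% and 40.9% of all tested genes). Of all 14017 genes tested, 38.4% were called, with 19.2% lower and 19.3% higher, beside 41.9% and 6.45% of the members. The median log2 fold change was -0.27 over the members and 0.02 over all tested genes. Total-count scaling would shift the median log2 fold change over the tested genes by 0.417, so every direction here is relative to the body of genes. The 3 knockout libraries lay wholly below the 3 wild types in 15 members and wholly above in 3. This is 18 of 31 against 54.8% of all tested genes, of which 26.6% lay below and 28.2% above.

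**Figure D1:**
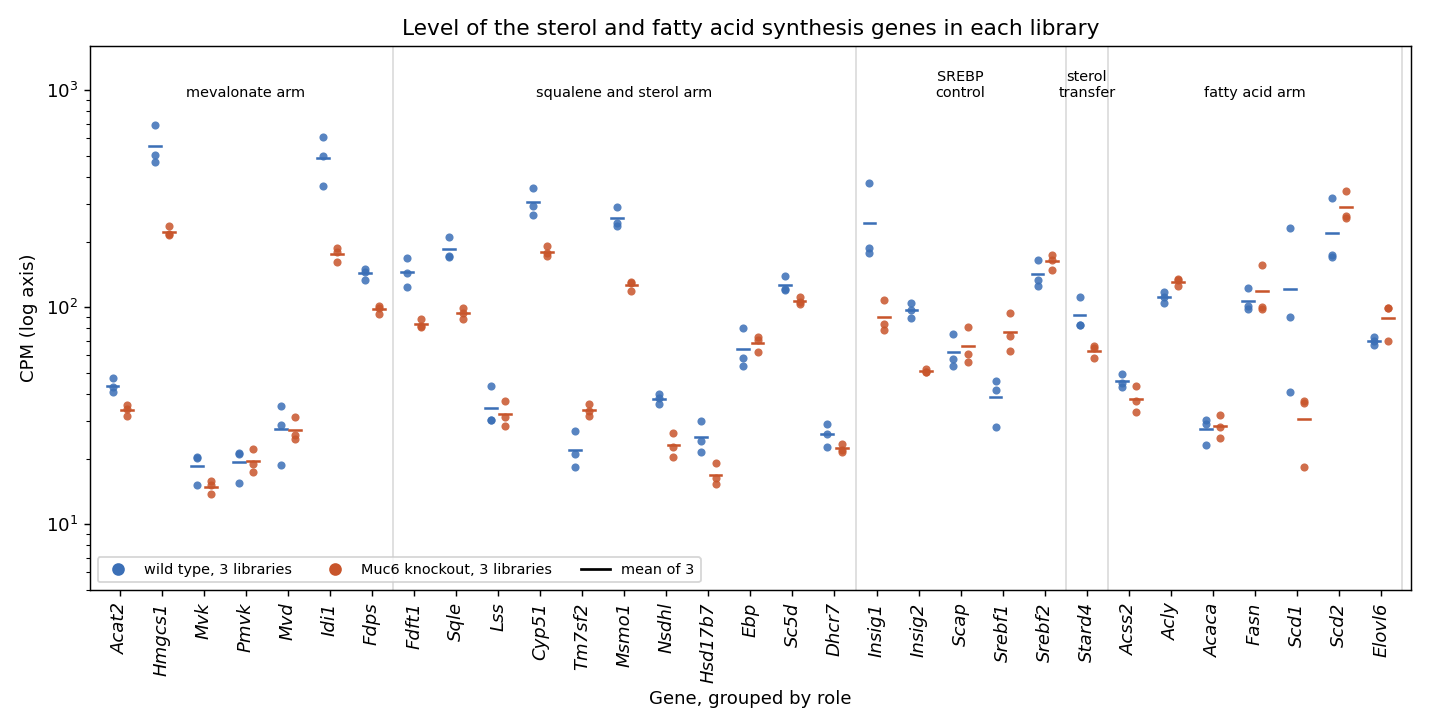
Level of each of the 31 genes in every library, in CPM on a log axis, with genes grouped by role. Blue points are the 3 wild-type libraries, red points the 3 Muc6 knockout libraries, and bars the mean of 3. Hmgcs1 sits at 466 to 695 CPM in wild type and 215 to 237 CPM in knockout, while Pmvk, Mvd and Scap overlap.

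Hmgcs1, Idi1, Fdps and Acat2 of the mevalonate arm fell, 4 of its 7 enzymes, and the other 3 were not called. The share called lower over all tested genes was 19.2%. Scaled to total counts, Acat2 turned to a log2 fold change of 0.04 (adjusted p = 0.765) and Fdps was no longer called (-0.13, adjusted p = 0.281). The median of the arm was -0.38. Hmgcs1 (chr13:119690379-119708260), which makes HMG-CoA, read 466, 501 and 695 CPM in wild type and 237, 218 and 215 CPM in knockout. The groups were far apart, and the wild types varied more than the knockouts. The log2 fold change was -1.31 ± 0.16 (SE), a 2.48-fold difference (adjusted p = 0.00127). Idi1 (chr13:8885501-8892451), which isomerises isopentenyl units, read 361, 500 and 608 CPM against 161, 179 and 187 CPM. The lowest wild type was well above the highest knockout, with a log2 fold change of -1.48 ± 0.19, the lowest of all called members (adjusted p = 0.00137). Both remained called with total-count scaling, at -0.89 (adjusted p = 0.00365) and -1.06 (adjusted p = 0.00353).

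Fdps (chr3:89093588-89101959), which makes farnesyl diphosphate, read 146, 134 and 150 CPM in wild type and 92.7, 99.6 and 101 CPM in knockout. The groups did not overlap, and the log2 fold change was -0.55 ± 0.10 (adjusted p = 0.0045). Fdps shares 1124 exonic bases with Gm43738 on the same strand, which lay between 0 and 0.522 CPM in every library. Acat2 (chr17:12942890-12960747), which joins acetyl-CoA units at the entry, read 47.1, 40.8 and 42.9 CPM against 34, 31.5 and 35.3 CPM. Its change was small, at -0.38 ± 0.11 (adjusted p = 0.0285), and was lost when wild type 2 (adjusted p = 0.0524), wild type 3 (0.0556), knockout 1 (0.063), knockout 2 (0.114) or knockout 3 (0.0596) was left out, and with no filter (0.0529). Acat3, a near copy that could share reads with Acat2, read 0.163, 0.394 and 0.058 CPM against 1.7, 0.748 and 1.66 CPM. At these low levels Acat3 was called higher (2.7, adjusted p = 0.0212). That call was lost without knockout 1 (0.0503), knockout 3 (0.0647) or wild type 3 (0.0641). Mvk, the mevalonate kinase, read 20.2, 15.2 and 20.4 CPM against 15.8, 15.2 and 13.8 CPM, with a log2 fold change of -0.32 ± 0.15 (adjusted p = 0.142). Pmvk, the next kinase, read 21.4, 15.5 and 21 CPM against 17.4, 18.9 and 22.2 CPM, and the difference was 0.02 ± 0.17 (adjusted p = 0.949). Mvd, the decarboxylase, read 28.6, 18.7 and 35 CPM against 31.1, 24.6 and 25.7 CPM, with -0.01 ± 0.23 (adjusted p = 0.966). Groups of these 3 overlapped.

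Among the 11 enzymes from squalene to cholesterol, 6 fell, Tm7sf2 rose and 4 were not called, with a median log2 fold change of -0.57. Over all tested genes 19.2% were called lower and 19.3% higher. Under total-count scaling the calls of Cyp51 (-0.34, adjusted p = 0.0632), Nsdhl (-0.29, 0.0822) and Hsd17b7 (-0.15, 0.466) were lost, while none of these signs turned. Fdft1 (chr14:63145150-63179578), squalene synthase, read 144, 124 and 169 CPM in wild type and 87.9, 81.6 and 81.1 CPM in knockout. It fell by 0.80 ± 0.13 on the log2 scale (adjusted p = 0.00343) with no overlap. Fdft1 shares 774 exonic bases with Ctsb on the opposite strand, and Ctsb had a log2 fold change of 0.19 (adjusted p = 0.339). The kit keeps the strand, but whether counting used it is not stated, so reads of such pairs may be mixed. Sqle (chr15:59315077-59331192), which oxidises squalene and is a rate-limiting step, read 173, 171 and 211 CPM against 99.5, 88.2 and 93.7 CPM. The knockout values were tightly grouped, and the change was -0.98 ± 0.12 (adjusted p = 0.00113). Lss, which closes the rings to lanosterol, read 30.2, 30.2 and 43.2 CPM against 37, 28.5 and 31.2 CPM and overlapped (-0.10 ± 0.18, adjusted p = 0.688).

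Cyp51 (chr5:4081145-4104746), the lanosterol demethylase, read 265, 294 and 354 CPM in wild type and 173, 177 and 191 CPM in knockout. The lowest wild type exceeded every knockout, with a log2 fold change of -0.76 ± 0.13 (adjusted p = 0.00417). Its exons share 166 bases with Akap9 on the opposite strand, itself called lower (-0.43, adjusted p = 0.0237). Msmo1 (chr8:64718139-64733792), the C4-methyl oxidase, read 236, 244 and 291 CPM against 119, 129 and 131 CPM. Each genotype was narrow, and the log2 fold change was -1.03 ± 0.12 (adjusted p = 0.000887), or -0.61 with total-count scaling (adjusted p = 0.00447). Nsdhl (chrX:72918557-72958514), which works next at that carbon, read 36, 39.7 and 38.2 CPM against 26.4, 20.5 and 22.8 CPM. It fell by 0.71 ± 0.13 (adjusted p = 0.00484), and it lies on chromosome X, as does Ebp. Hsd17b7 (chr1:169949535-169969241), the ketoreductase of the same complex, read 21.5, 24.2 and 29.9 CPM against 16.4, 15.3 and 19.2 CPM. Its log2 fold change was -0.57 ± 0.16 (adjusted p = 0.0285), and leaving out wild type 2 (adjusted p = 0.0699), knockout 1 (0.0712), wild type 3 (0.0842) or knockout 2 (0.104), or correcting for GC content (0.153), ended the call.

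Tm7sf2 (chr19:6062821-6068373), a sterol C14-reductase, was the sterol enzyme that rose. It read 26.9, 18.4 and 21 CPM in wild type and 35.9, 33.4 and 31.4 CPM in knockout. The knockouts were all higher, by 0.60 ± 0.16 on the log2 scale (adjusted p = 0.0212). The call ended when wild type 2 (adjusted p = 0.0698), wild type 3 (0.0683), knockout 1 (0.057) or knockout 2 (0.0632) was left out. It shares 532 exonic bases with Vps51 on the same strand, so reads there could be assigned to either. Vps51 read 13, 6.64 and 9.05 CPM against 11, 6.19 and 8.5 CPM.

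The enzymes nearest to cholesterol were not called. Ebp, the isomerase, read 80.7, 58.7 and 53.4 CPM in wild type and 73.3, 70.5 and 62.1 CPM in knockout, and overlapped (0.09 ± 0.17, adjusted p = 0.678). With total counts Ebp was called higher (0.51, adjusted p = 0.035). Sc5d, the desaturase, read 120, 122 and 139 CPM against 111, 104 and 106 CPM. Its groups did not overlap, yet the log2 fold change of -0.25 ± 0.10 missed the threshold (adjusted p = 0.0889). Dhcr7, the last reductase of its branch, read 29.1, 22.8 and 26 CPM against 23.5, 22.1 and 21.6 CPM (-0.21 ± 0.13, adjusted p = 0.223). The GC correction gave it a call (-0.41, adjusted p = 0.0197). A p that misses the threshold does not show that the levels were equal. Over both sterol arms, 10 of 18 enzymes were called lower and 1 higher, beside 19.2% and 19.3% of all tested genes. The median of these enzymes was -0.46.

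**Figure D2:**
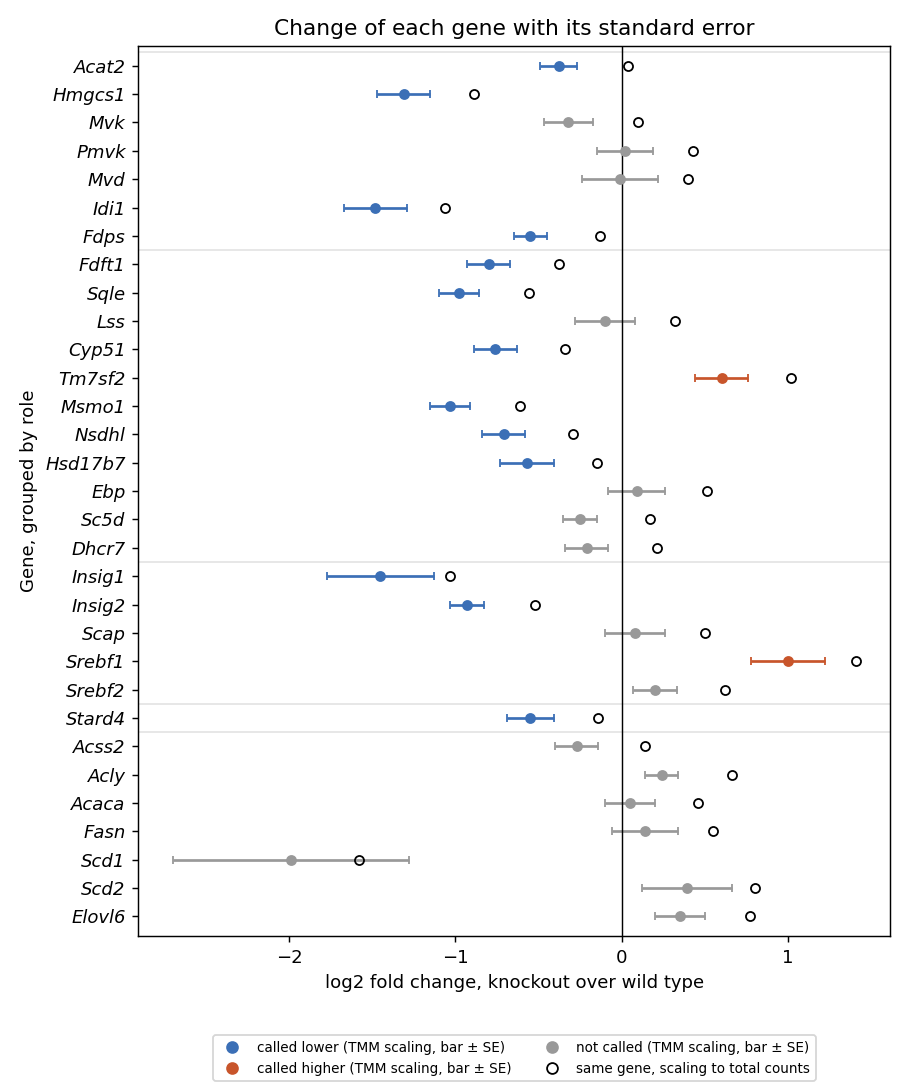
Log2 fold change, knockout over wild type, for each gene, with bars of 1 SE. Blue is called lower, red called higher and grey not called under TMM scaling, and open circles are the same genes scaled to total counts. Of the genes called lower, all but Acat2 stay left of 0 in both, and Acat2 moves to 0.04. Hmgcs1, Idi1, Fdft1, Sqle, Msmo1, Insig1 and Insig2 also stay called with total counts.

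Of the 5 genes that control SREBP, Insig1 and Insig2 fell, Srebf1 rose, and Scap and Srebf2 were not called. Over all tested genes 38.4% were called in either direction. None of the 3 calls turned under total-count scaling. Insig1 (chr5:28071363-28078662) read 188, 177 and 372 CPM in wild type and 78.2, 84.1 and 108 CPM in knockout. Wild type 3 was much higher than its group, and all wild types lay above all knockouts. The log2 fold change was -1.45 ± 0.32 (adjusted p = 0.0133), and -1.03 without wild type 3 (adjusted p = 0.00807). The call was lost without knockout 2 (adjusted p = 0.0521) and without both libraries numbered 1 (0.0718). Insig2 (chr1:121304353-121332589), the related anchor, read 105, 97.1 and 89 CPM against 51.7, 50.3 and 50.4 CPM. The knockout libraries were almost equal, with a log2 fold change of -0.93 ± 0.10 (adjusted p = 0.000723), the smallest p of the members.

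Srebf1 (chr11:60199089-60222581) read 41.4, 28.2 and 45.9 CPM in wild type and 93.8, 74 and 62.6 CPM in knockout. Each knockout was above each wild type, by 1 ± 0.22 on the log2 scale (adjusted p = 0.0113), or 1.41 with total counts (adjusted p = 0.00204). Srebf1 shares 109 exonic bases with Rai1 on the opposite strand, which was itself called higher (0.92, adjusted p = 0.0171). Gene counts do not separate its SREBP-1a and SREBP-1c transcripts. Srebf2 read 165, 126 and 134 CPM against 174, 166 and 148 CPM and overlapped (0.20 ± 0.13, adjusted p = 0.257). It was called with total-count scaling, at 0.62 (adjusted p = 0.00646). Scap read 75.1, 57.8 and 53.9 CPM against 81, 61 and 56 CPM (0.08 ± 0.18, adjusted p = 0.741), and with total counts 0.5 (0.0496).

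Stard4, which carries sterol between membranes and is SREBP-responsive, fell. It (chr18:33199355-33213862) read 82.6, 83.3 and 112 CPM in wild type and 58.6, 64.7 and 66 CPM in knockout. Groups were apart, with a log2 fold change of -0.55 ± 0.14 (adjusted p = 0.0191). The call was lost without knockout 1 (0.0551) or knockout 2 (0.0585), with the GC correction (0.136) and with total counts (-0.14, 0.455).

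No gene of the 7-gene fatty acid arm was called by edgeR, beside 38.4% of all tested genes. The median log2 fold change of the arm was 0.14. At an unadjusted p under 0.05 the count was 3, beside 48.8% of all tested genes. DESeq2 called 1 (Scd1, lower), limma-voom called 0, and total-count scaling called 5, all higher, beside 40.9% of all tested genes. Acly, which makes cytosolic acetyl-CoA from citrate, read 105, 111 and 117 CPM in wild type and 135, 125 and 134 CPM in knockout. Its groups did not overlap (0.24 ± 0.10, adjusted p = 0.0813). Acss2, which makes acetyl-CoA from acetate, read 49.3, 44.8 and 43 CPM against 43.6, 32.9 and 37 CPM (-0.27 ± 0.13, adjusted p = 0.139). It was called lower without both libraries numbered 1 (-0.35, adjusted p = 0.0343). Acss2 shares 395 exonic bases with Gss on the opposite strand, which was not called (-0.14, adjusted p = 0.46). Acaca, the acetyl-CoA carboxylase that commits carbon to fatty acids, read 23.1, 30.3 and 29.1 CPM against 32, 25.1 and 28 CPM (0.05 ± 0.15, adjusted p = 0.834).

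Fasn, the synthase, read 101, 98.3 and 123 CPM in wild type and 157, 98.5 and 100 CPM in knockout, with knockout 1 alone standing high (0.14 ± 0.20, adjusted p = 0.614). Elovl6, which lengthens palmitate, read 72.6, 70.3 and 66.8 CPM against 69.6, 98.9 and 99 CPM. Knockout 1 stood at the wild-type level, and the difference was 0.35 ± 0.15 (adjusted p = 0.0992), or 0.50 without it (adjusted p = 0.0125). Scd2, a desaturase, read 174, 171 and 318 CPM against 343, 264 and 259 CPM (0.39 ± 0.27, adjusted p = 0.288). Wild type 3 overlapped the knockouts, and without it the value was 0.73 (adjusted p = 0.0218).

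Scd1, the other main desaturase, read 40.9, 233 and 90.4 CPM in wild type and 18.3, 36.2 and 37.2 CPM in knockout. The groups did not overlap, but the wild types spanned a wide range, so the log2 fold change of -1.99 ± 0.71 missed the threshold (adjusted p = 0.0782). It was -2.42 without wild type 1 (adjusted p = 0.0338) and -1.09 without wild type 2 (0.147). DESeq2 called it (-2.01, adjusted p = 0.0206). The adipocyte genes Adipoq (0.109, 10.8 and 4.99 CPM in wild type, 0, 0.748 and 0 CPM in knockout) and Car3 (0.761, 33.5 and 24.7 CPM, against 0.467, 2.83 and 0.349 CPM) had the same order over the wild types, as did 6 of the 13 adipocyte markers (Adipoq, Plin1, Fabp4, Retn, Cfd and Car3). The other 7, Pparg, Cidec, Cidea, Lep, Plin4, Lipe and Adrb3, did not. The 13 adipocyte markers summed to 339 to 434 CPM in wild type and 191 to 210 CPM in knockout, most of it Pparg, and none was at 0 in every library. Of the 10 tested, 2 were called lower and 1 higher. Their part in the Scd1 values was not tested.

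Levels between genes are compared per kb of the principal transcript. Idi1 and Hmgcs1 led the wild type (162 and 160 CPM per kb), followed by Msmo1 (126) and Fdps (104). In knockout the order was Fdps (70.7), Hmgcs1 (64.5), Msmo1 (61.7) and Idi1 (58). The range of these 4 narrowed, and Scd2 (52.9 CPM per kb, from 40.5) came next. Acaca was lowest in both (2.89 and 2.98). Srebf1 moved from 8.96 to 17.9 CPM per kb, and Scd1 from 25.2 to 6.32. Of the 16 members at or above the median level per kb over both genotypes, 10 were called lower, against 3 of 15 below it. Of all tested genes 19.2% were called lower, and this share was not split by level. Whether the split is particular to the members was therefore not tested. Spearman's rho of level per kb and log2 fold change was -0.413 over the 31 genes and -0.569 over the 18 sterol enzymes, a description over genes that share the same libraries.

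**Figure D3:**
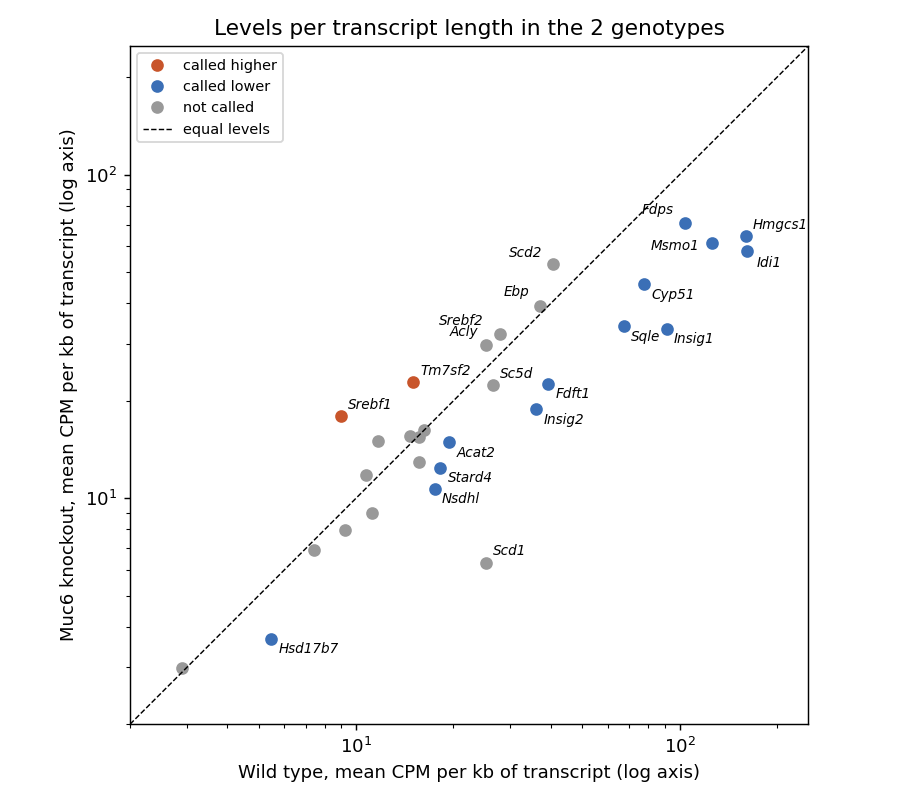
Mean level per kb of transcript in wild type and knockout, in CPM per kb on log axes, with 1 point per gene and the dashed line at equal levels. Points below the line are lower in knockout: Idi1 falls from 162 to 58, while Srebf1 lies above it at 8.96 and 17.9.

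The wild types were the more variable group for most members, given as a description with no test. The median coefficient of variation was 15.5% over the 3 wild types and 8.16% over the 3 knockouts, and 26 of the 31 members had the smaller value in knockout. Wild type 3 was the highest wild type in 12 of the 18 sterol enzymes and in 10 of the 13 members called lower. Knockout 1 was the highest knockout in 20 of the 31. None of these counts was made over all tested genes, so whether they are particular to the members was not tested.

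Genes around the pathway were read from 6 related lists. Of all tested genes 19.3% were called higher and 19.2% lower, the shares to set beside the counts of each list. Among other sterol synthesis genes, 13 were tested, with 3 higher, 3 lower and a median log2 fold change of -0.13. Acat1, a mitochondrial thiolase, fell by 1.05 (adjusted p = 0.00134), from 195, 240 and 221 CPM to 104, 93.2 and 121 CPM. Por, the reductase that passes electrons to Cyp51 and Sqle, rose by 1.03 (adjusted p = 0.00209), from 91.5, 63.8 and 80.8 CPM to 163, 171 and 148 CPM. Cyb5r3, which feeds electrons to the desaturase steps, rose by 0.67 (adjusted p = 0.00332). Pdss2, of ubiquinone side-chain synthesis, had -0.72 (adjusted p = 0.00881), lost with total counts (-0.30, 0.133).

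SREBP cleavage and sterol-sensing genes moved both ways, with 5 of 12 higher and 4 lower (median 0.03). Erlin1, an endoplasmic reticulum protein that binds cholesterol, fell by 0.97 (adjusted p = 0.000755). Mbtps1, the site-1 protease that cuts SREBP, rose by 0.86 (adjusted p = 0.00119), from 38.7, 42.9 and 40.9 CPM to 81.5, 69.3 and 71.4 CPM. Rnf145, a sterol-linked ubiquitin ligase, rose by 1.67 (adjusted p = 0.00491). Pgrmc1 had -0.52 (adjusted p = 0.0048), lost with total counts (-0.10, 0.365).

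Of 19 sterol uptake and transport genes, 9 were higher and 5 lower, with a median of 0.48. Npc2 and Npc1, which move cholesterol out of lysosomes, rose by 1.17 (adjusted p = 0.000578) and 1.09 (0.00209). Npc2 read 51.8, 42 and 44.1 CPM in wild type and 97.6, 106 and 106 CPM in knockout, so the groups were apart. Gramd1b, which carries sterol from the plasma membrane, rose by 1.12 (adjusted p = 0.00101), and Scp2, a sterol carrier, fell by 0.98 (0.00222).

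LXR, export and esterification genes had 5 higher and 1 lower of 14, with a median of 0.69. Abcg1, a sterol exporter, read 0.543, 0.562 and 0.986 CPM in wild type and 3.31, 4.78 and 5.06 CPM in knockout, a rise of 2.64 (adjusted p = 0.00268). Cyp27a1, the sterol 27-hydroxylase, rose by 3.41 (adjusted p = 0.00285), from 0.489, 0.45 and 1.33 CPM to 11.8, 7.11 and 5.41 CPM. Apoe, a lipoprotein component, had 1.72 (adjusted p = 0.0165), lost without wild type 2 (0.0675) and with the GC correction (0.0672). Soat2, a cholesterol acyltransferase, had -0.88 (adjusted p = 0.0161), lost without knockout 2 (0.0613) and with total counts (-0.47, 0.109). Abcg1 and Apoe are also made by macrophages, and the 11 leukocyte markers summed to 11.5, 62.4 and 73.9 CPM in wild type and 401, 228 and 571 CPM in knockout, mostly the plasma cell genes Igha (207, 114 and 406 CPM in knockout) and Jchain (75.9, 40 and 91.6 CPM). Of 8 tested, Igha, Jchain and Ptprc were called higher, and the macrophage markers Adgre1, Csf1r, Cd68, Lyz2 and Itgam were not called. Their log2 fold changes were -0.3, 1.58, 0.96, 0.65 and 2.41 in that order. Every knockout lay above every wild type for Csf1r and Itgam, and the groups overlapped for Adgre1, Cd68 and Lyz2. The part of leukocytes in the Abcg1 and Apoe values was not tested.

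Other fatty acid synthesis genes had 3 higher and 6 lower of 24 (median -0.16). Fads2 and Elovl5, a desaturase and an elongase of polyunsaturated fatty acids, rose by 1.65 (adjusted p = 0.000301) and 1.77 (0.000925). Fads2 read 9.67, 10.7 and 10.6 CPM in wild type and 36, 30.5 and 30.7 CPM in knockout. Fabp5, a fatty acid carrier, fell by 2.22 (adjusted p = 0.000531), from 348, 342 and 336 CPM to 51.3, 90.3 and 79.1 CPM, and Acsl3, an acyl-CoA synthetase, fell by 1.16 (0.000555). Glycerolipid and droplet genes had 5 higher and 4 lower of 18 (median 0.17). The droplet coats Plin2 and Plin3 rose by 1.4 (adjusted p = 0.000854) and 0.74 (0.00185). Mgll, which cleaves monoacylglycerol, fell by 2.32 (adjusted p = 0.00207), and Pcyt1a, of phosphatidylcholine synthesis, by 0.80 (0.00182). With total counts, the numbers higher and lower became 6 and 1, 7 and 1, 12 and 1, 7 and 0, 7 and 5, and 10 and 2 for the 6 lists in the order given. Of all tested genes 40.9% were then called higher and 7.78% lower.

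**Figure D4:**
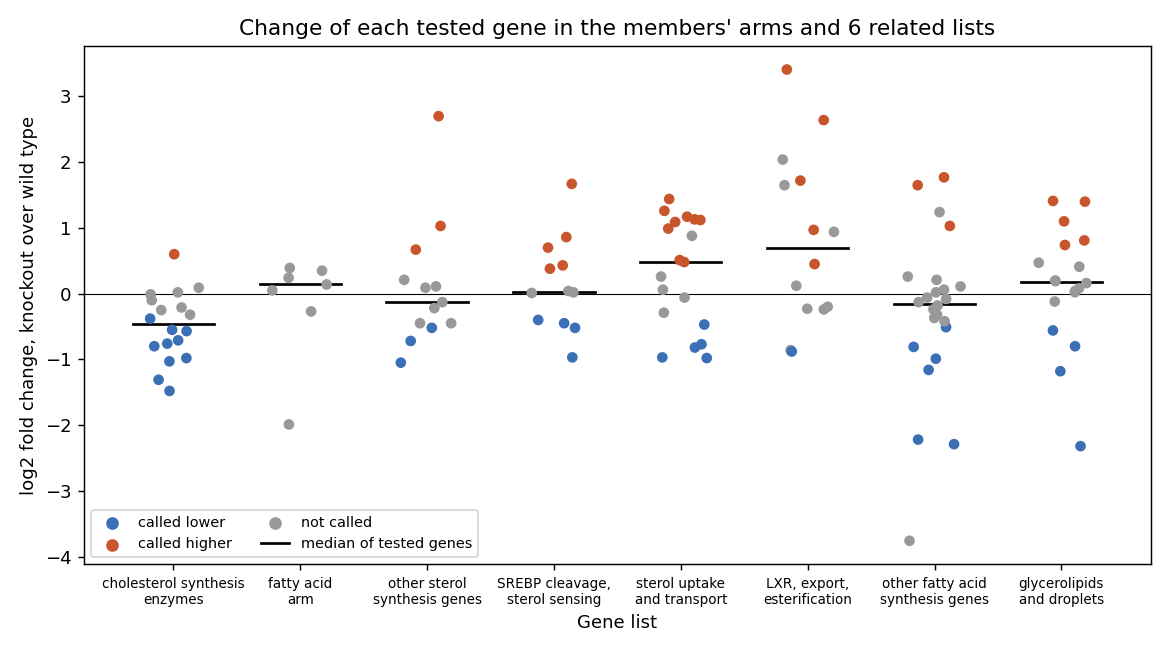
Log2 fold change of every tested gene in the sterol enzymes, the fatty acid arm and the 6 related lists, with black bars at the medians. Blue is called lower, red called higher and grey not called. The sterol enzymes have a median of -0.46, and the LXR, export and esterification genes 0.69. With total counts the sterol uptake list goes from 9 higher and 5 lower to 12 and 1. Of all tested genes 40.9% are then called higher and 7.78% lower.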

How the data were processed

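RNA was prepared with a stranded mRNA kit, per the labels' protocols, and the submitters' processing notes name the build mm10; for aligner and counter, nothing is stated in the sources used. The authors deposited 1 table of estimated counts per gene, not normalized, which were rounded to whole numbers. Of 34866 gene rows, 34652 matched GENCODE M21 (GRCm38), and the remaining 214 held at most 0.0296% of a library's counts. Genes passing edgeR's filterByExpr (14017) were TMM-scaled and tested in R 4.3.3 with the robust quasi-likelihood fit of edgeR 4.0.16, with Benjamini-Hochberg adjustment over all of them; SE is the difference over the square root of its F. Biological variation between libraries was 0.283 (common coefficient). CPM uses TMM-scaled library sizes, and a level per kb divides by the principal transcript's length. Members and lists were chosen with earlier results of these data known. Of each related list, up to 4 genes with the smallest adjusted p among those called are named. Alternatives were other scalings, filters, thresholds, DESeq2 1.42.0, limma-voom (limma 3.58.1), a GC correction, a replicate block and libraries left out.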

Additional observations from a re-analysis of the deposited data

How the results depend on the processing

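Calls of 6 members (Hmgcs1, Idi1, Fdft1, Sqle, Msmo1 and Insig2) were the same under every alternative run, and Srebf1 under all but the false discovery rate of 0.01. Scaling to total counts gave 5730 genes higher and 1091 lower, with 10 members higher and 7 lower, against 2699, 2687, 2 and 13. It turned Acat2 to 0.04, Mvk to 0.1, Mvd to 0.4, Lss to 0.32, Sc5d to 0.17, Dhcr7 to 0.21 and Acss2 to 0.14. A false discovery rate of 0.01 gave 1257 genes higher, 1408 lower and 0 members higher, and a rate of 0.1 gave 4 members higher and 15 lower, with 3460 genes higher and 3335 lower. Removing the GC trend turned Pmvk to -0.31, Ebp to -0.02, Sc5d to 0.08, Scap to -0.29, Srebf2 to -0.15 and Fasn to -0.22, and gave calls for Mvk (-0.63), Dhcr7 (-0.41) and Elovl6 (0.61). Mvd was 0 with upper-quartile factors and with no filter, and 0.03 with limma-voom. Without both libraries numbered 1, Acaca and Fasn turned to -0.18. Apart from the scaling itself, the cause was not tested.

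Leaving out 1 library at a time gave 1600 to 3045 genes higher and 1721 to 2964 lower, and 1 to 2 members higher and 9 to 15 lower; the lows were without wild type 2 for genes higher (1600) and without knockout 2 for genes lower (1721; without wild type 2, 1742). The log2 fold change ran from -0.11 to 0.09 in Pmvk, -0.22 to 0.19 in Mvd, -0.21 to 0.08 in Lss, -0.04 to 0.28 in Ebp, -0.09 to 0.23 in Scap, -0.08 to 0.13 in Acaca and -0.11 to 0.26 in Fasn.

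The labels do not say that same-numbered libraries are paired. Their deviations correlated at 0.252, 0.091 and 0.191 over all tested genes, not all above 0.1, and at 0.57, 0.535 and 0.125 over the members, where wild type 2 and knockout 3 reached 0.501. Not every library correlated best with its own number. With the replicate block, 2572 genes were higher and 2497 lower, 2 members higher and 14 lower, with Scd1 added (-1.71, adjusted p = 0.0221), and Mvd was 0.02.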
